A study of Mus musculus with 18 samples.

Results

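IMT11 embryonic stem (ES) cells, a mouse line, were compared with embryoid bodies (EBs) made from them 1 day after LIF was withdrawn. All clones of the cDNA array that carried one gene symbol and a value on each of the 4 arrays of both groups were taken, which gave 9866 of 15360 clones and 7142 genes. No clone was chosen for its level, and the 9866 clones include those with no difference.

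The D0 group was undifferentiated IMT11 cells grown on gelatin with LIF and serum (in MEM-alpha by the labels and DMEM by the methods), trypsinised and washed before RNA extraction. By the methods, EBs for arrays were washed and trypsinised too, with reference to a step written for larger, later bodies. The D1-LIF group was EBs of 1000 cells each, aggregated in hanging drops of the same medium without LIF and collected after 1 day, so withdrawal of LIF, aggregation in suspension and time away from the dish changed together and cannot be told apart here. D1+LIF bodies, aggregated for 1 day with LIF kept in the drop, served as a second point of comparison. Each group had 2 arrays, one with the sample in Cy3 and one with the sample in Cy5, and each array was hybridised against one common pool of RNA. All the RNA came from one ES cell line, each EB sample held many bodies, and the labels do not say which array belongs to which of the biological sets, so the error given here is the spread between arrays, which may be partly technical.

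LIF (leukaemia inhibitory factor) signals through its receptor and gp130 to the transcription factor Stat3, and with serum it keeps mouse ES cells self-renewing. When it is withdrawn and the cells aggregate, a network led by Pou5f1 (Oct4) and Nanog is lost over the following days, an outer layer of extraembryonic endoderm forms, and primitive ectoderm and the germ layers follow. ES cells divide fast and carry large amounts of mRNA for ribosomes, translation factors and chaperones, which makes these messages the brightest on many arrays.

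The arrays were not of equal quality, and this bears on every value. On the D1-LIF Cy5 array the first 18 grid blocks of slide 1, which hold 2880 clones, correlated with the other Cy5 arrays at a rank correlation of 0.074 to 0.42 as deposited and at 0.58 to 0.94 once their spots were moved on by 1 grid row, whereas the other blocks lay at 0.82 to 0.96 in place. On the D0 Cy5 array 2 blocks, with 320 clones, showed the same displacement, and no block of slide 2 did on any Cy5 array. The Cy3 arrays were not checked for displacement, so displaced blocks below are those found on Cy5 arrays. The D0 Cy3 array had an SD of log2 ratios of 2.23 on slide 1 and 0.49 on slide 2. The Cy3 arrays of the other conditions had 0.22 to 0.63 on slide 1 and 0.17 to 0.30 on slide 2. The D0 Cy5 array was narrow, at 0.32 and 0.43, against 0.50 to 2.40 and 0.59 to 1.41 on the Cy5 arrays of the other conditions. D0 therefore differed in spread from those arrays in both dyes and on both slides. The duplicate spots of the D1-LIF Cy3 array correlated at 0.47 on slide 1 and 0.75 on slide 2. Slide 2, which carries 5000 of the member clones and 4191 of the genes, is therefore given beside the values from both slides.

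**Figure D1:**
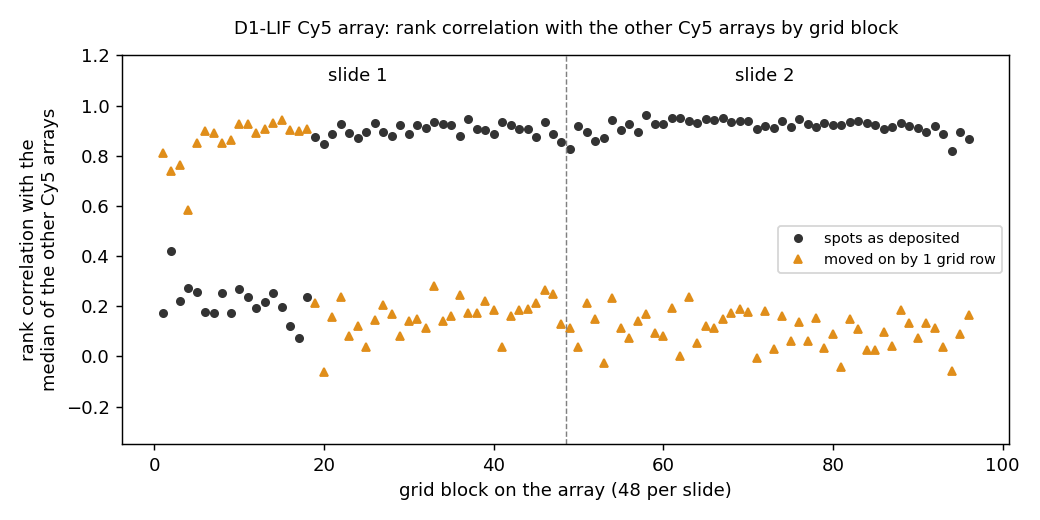
Rank correlation of each grid block of the D1-LIF Cy5 array (x axis, block number in deposited order) with the median of the other Cy5 arrays (y axis), for spots as deposited (black points) and moved on by 1 grid row (orange triangles). In the first 18 blocks of slide 1 the points lie at 0.074 to 0.42 and the triangles at 0.58 to 0.94, and in all later blocks the order is the opposite.

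The deposited ratios were read as sample over pool, which is an assumption and is not stated, so every sign below rests on that reading. Values are log2 ratios centred on each array's slide median, and a difference of 1 is 2-fold. Over 7680 clones of slide 2 the arrays of both dyes for D0 correlated at -0.73, while those of D1-LIF correlated at 0.49. A level could therefore not be compared across dyes, and the comparison was made within each dye and then averaged. The negative correlation for D0 also leaves the reading of the ratios uncertain. With all Cy3 or all Cy5 ratios turned over, no gene passed the test in either direction. Of the 34 gene lists examined, 1 kept the sign of its median with Cy3 turned, 33 with Cy5 turned and 17 as deposited with no centring, so each list's direction is given under that reading and centring.

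With the ratios read as sample over pool, 5 genes fell and none rose in D1-LIF bodies. The test covered 7142 genes (limma with Benjamini-Hochberg adjustment, 0.07% called lower and 0% higher). The 5 genes were Eef1a1, Rpl37, A730082K24Rik, Rpsa and Sod1, with changes from -2.83 to -2.12 on the log2 scale. None of the 5 was called with the arrays scaled to an equal spread within slide or to equal quantiles, without the dye term, with array weights, or with the 4 arrays alone, where 0 genes were lower in each case. On slide 1 alone 0 genes were lower too, but Sod1 and A730082K24Rik have no clone there and could not be tested. Eef1a1 encodes the factor that brings aminoacyl-tRNA to the ribosome, Rpl37 and Rpsa encode proteins of the large and small ribosomal subunits, and Sod1 encodes the copper-zinc superoxide dismutase of the cytosol. Unadjusted p lay under 0.05 for 1171 genes lower (16.4%) and 429 genes higher (6.01%), together 22.4% of those tested. At the level of clones none of 15360 passed the adjusted threshold in limma, and 3292 (21.4%) had an unadjusted p under 0.05.

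Eef1a1 gave centred log2 ratios of 2.72 (D0, Cy3), -1.14 (D0, Cy5), -0.42 (D1-LIF, Cy3) and -3.67 (D1-LIF, Cy5), a change of -2.83 ± 0.32 (SE, n = 2 arrays per group, limma adjusted p = 0.012). Within each dye the D1-LIF array was the lower one, but the D0 Cy5 array lay below the D1-LIF Cy3 array, so the groups overlapped across dyes. All 17 of its clones were lower, from -4.94 to -1.32, and the 11 clones on slide 2 averaged -2.37. On the arrays of the other conditions it ranged from -0.33 to 1.19 in Cy3 and from -3.89 to -2.50 in Cy5, so in each dye the D0 array was the highest of the 9.

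Rpl37 read 2.52 and -0.58 in D0 and -0.36 and -3.24 in D1-LIF (Cy3 then Cy5 in each group), a change of -2.77 ± 0.29 (limma adjusted p = 0.012). One of its 2 clones lay in a displaced block, and without that clone the change was -1.65 and the adjusted p in limma 0.069. Rpsa, with 7 clones, read 2.15 and -0.89 in D0 and -0.76 and -3.25 in D1-LIF, a change of -2.63 ± 0.37 (limma adjusted p = 0.048). Both genes repeated the order seen for Eef1a1, with D1-LIF lower in each dye and overlap across dyes.

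Sod1 read 1.49 and -0.69 in D0 and -0.43 and -3.0 in D1-LIF, a change of -2.12 ± 0.30 (limma adjusted p = 0.048), and A730082K24Rik read 2.39 and -1.72 in D0 and -0.25 and -4.52 in D1-LIF, a change of -2.73 ± 0.31 (limma adjusted p = 0.012). Each was measured by 1 clone of slide 2, outside every displaced block of the Cy5 arrays. They were the 2 genes that passed the test on slide 2 alone, with adjusted p of 0.018 for Sod1 and 0.0042 for A730082K24Rik in limma (0.0477% of 4191 genes).

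When clones of displaced blocks were left out, 5 of 6058 genes (0.0825%) passed in the direction of lower ratios. Of the genes named above, 4 were among them, Rpl37 was not, and Rpl32, another protein of the large subunit, was the fifth at -3.16 ± 0.39 (limma adjusted p = 0.022). The calls also depended on single arrays. With the D0 Cy3, the D1-LIF Cy3 or the D1-LIF Cy5 array left out no gene passed, and without the D0 Cy5 array 1561 genes were lower and 805 higher, a fit in which D0 is represented by its widest array alone.

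**Figure D2:**
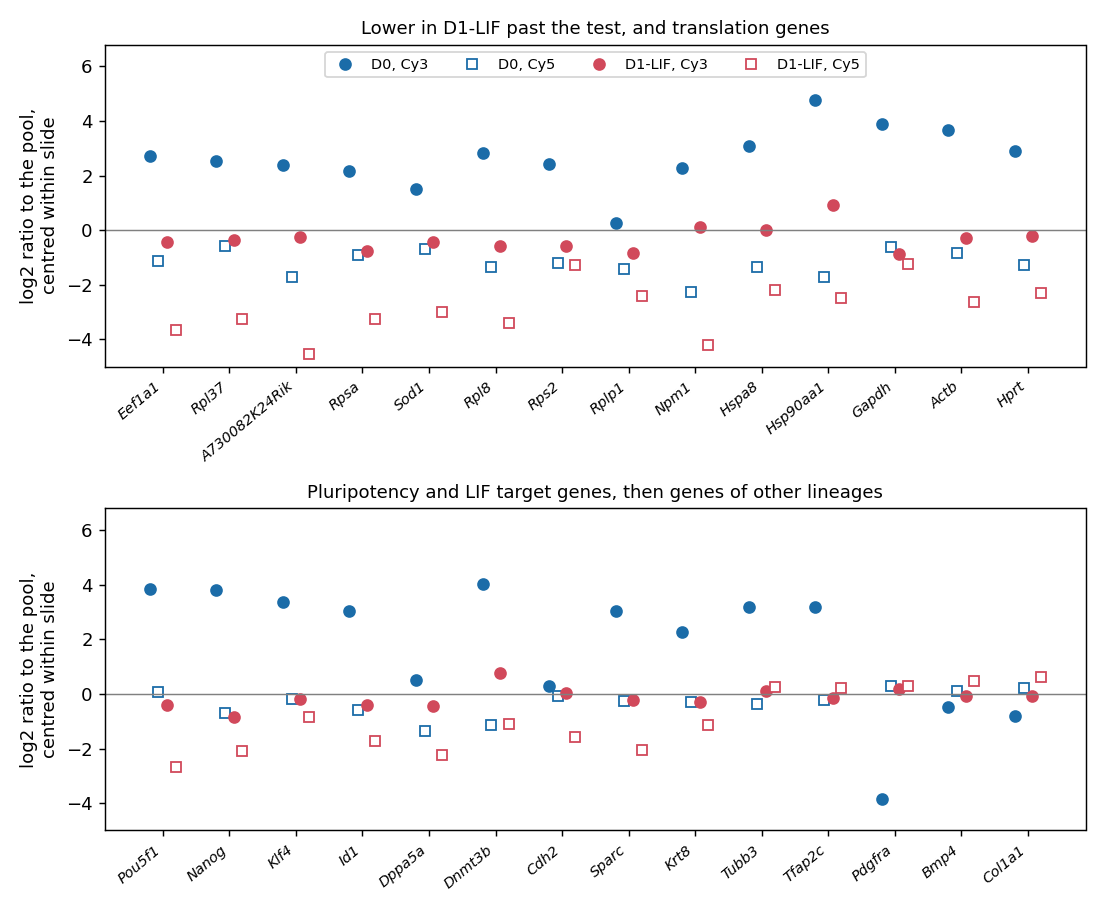
Log2 ratio to the pool, centred within slide, of 28 genes on the 4 arrays (blue D0, red D1-LIF, filled circles Cy3, open squares Cy5, 1 point per array). For Eef1a1 the points are 2.72 and -1.14 in D0 and -0.42 and -3.67 in D1-LIF, and the same order, D1-LIF below D0 within each dye, is seen for the genes of the upper panel except where the Cy5 points nearly coincide.

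Cytosolic ribosomal proteins were the most uniform in direction of the gene lists with more than 4 genes measured. Of 72 measured, 70 were lower in D1-LIF in both dyes and none was higher in both, against 2881 of 7142 genes (40.3%) lower in both dyes and 1970 (27.6%) higher in both over the whole array. Their median change was -1.71, against -0.10 for all genes, with -1.75 in the Cy3 arrays and -1.63 in the Cy5 arrays. Of the 72 genes 2 passed the test, Rpl37 and Rpsa.

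By array, the 72 genes had a median of 1.33 on D0 Cy3 (range -0.31 to 4.35) and -0.89 on D0 Cy5 (-2.04 to -0.18). On D1-LIF they had a median of -0.30 in Cy3 (-0.85 to 0.22) and -2.53 in Cy5 (-3.96 to -0.53). All 72 lay below 0 on both Cy5 arrays and 69 of them above 0 on D0 Cy3. On slide 2 alone 62 of 65 were lower in both dyes and none was higher in both, with a median change of -1.41, beside 35.8% of all genes lower and 31.4% higher in both dyes on that slide and a median of -0.03. Scaling the arrays to an equal spread within slide or to equal quantiles left the medians at -0.76 and -0.75 for the large subunit and at -0.90 and -1.02 for the small, and with the Cy3 ratios turned they were 0.06 and -0.01. As deposited, with no centring, the median of all genes moved from -0.10 to 0.55 and those of the large and small subunit were -1.16 and -1.05.

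The large subunit contributed 45 genes, of which 43 were lower in both dyes (median -1.71), and the small subunit 27, all lower in both (median -1.80). Rpl8 read 2.84 and -1.35 in D0 and -0.60 and -3.40 in D1-LIF, a difference of -2.74 with an adjusted p of 0.09 in limma. Rps2 read 2.42 and -1.22 in D0 and -0.59 and -1.26 in D1-LIF, and one of its 2 clones was displaced. Rplp1, a protein of the stalk of the large subunit, read 0.25 and -1.42 in D0 and -0.85 and -2.41 in D1-LIF.

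The smallest differences in the group were those of Rpl11, at 0.06 in Cy3 and -0.38 in Cy5, and Rpl27, at 0.22 and -0.88, and these were the 2 ribosomal protein genes that did not share a sign between dyes. The most negative value in the group was that of Rps27l, a close relative of Rps27 that is induced by p53, at -3.54 from 1 clone of slide 1 (limma adjusted p = 0.155). Genes of this group have many processed pseudogenes and cDNA probes can share targets between near-identical copies, which was not checked. Single members, and the group's count as a set of separate genes, are less certain for it.

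**Figure D3:**
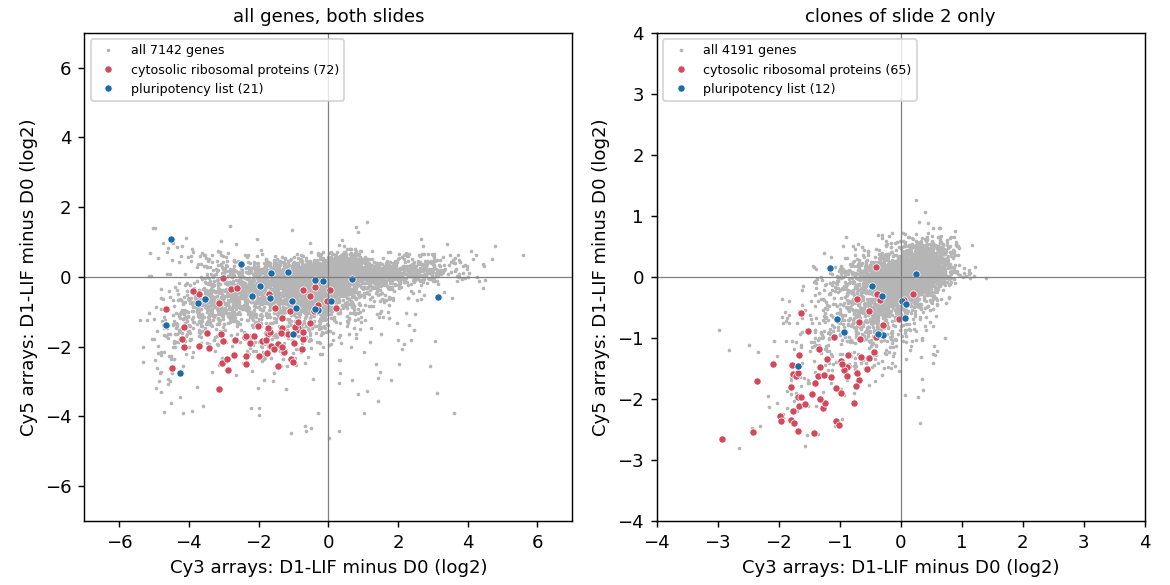
Difference between D1-LIF and D0 in the Cy3 arrays (x axis, log2) against the difference in the Cy5 arrays (y axis, log2) for each gene (grey), with cytosolic ribosomal proteins in red and the pluripotency list in blue, for both slides (left, 7142 genes) and slide 2 alone (right, 4191 genes). Ribosomal proteins lie in the lower left quadrant, 70 of 72 on the left and 62 of 65 on the right.

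The differences in both dyes correlated across genes at 0.45 over both slides (7142 genes) and at 0.61 on slide 2 (4191 genes), as a description over genes that share arrays and the pool and are not independent. Over both slides 447 genes (6.26%) were at least 2-fold lower in each dye and 2 (0.028%) at least 2-fold higher, and on slide 2 alone 120 (2.86%) were lower and none higher. The dyes disagreed in sign for 2291 genes (32.1%). In 713 genes (9.98%) both D1-LIF arrays lay below both D0 arrays and in 972 (13.6%) both lay above.

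Of the member clones, 695 (7.04%) were at least 2-fold lower in D1-LIF in every spot pair, that is, in both dyes and both copies of the spot, and none was at least 2-fold higher. This direction depended on the centring. Over all 15359 clones tested 919 were lower and 1 higher, but as deposited with no centring 344 were lower and 1032 higher. The 695 clones came from 554 genes, with 524 clones on slide 1, 171 on slide 2 and 117 in displaced blocks. Eef1a1 contributed 13 of its 17 clones, Actb 8 of 10, Rpsa 6 of 7, Rpl7 6 of 8, Rpl10 5 of 5, Ftl1 4 of 6 and H2az1 4 of 5. In all, 87 genes had 2 or more clones in this set. Actb encodes beta-actin, Ftl1 a ferritin chain, which stores iron, and H2az1 a replacement histone, and Eef1g, Nap1l1, Rpl3, Serbp1 and Tubb5 also had 4 clones each.

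On slide 2 alone, where 49 of 7680 clones (0.638%) passed the test and all 49 were lower, 31 of them had a symbol and came from 21 genes. Of the 21 genes 7 encoded cytosolic ribosomal proteins. Clones of Eef1a1, Eef2 (the translocase of elongation), Npm1 (nucleophosmin, a chaperone of ribosome assembly in the nucleolus), Hsp90aa1 (a stress-inducible chaperone) and Tubb5 (a beta-tubulin) were also in the set. The changes ran from -2.98 to -1.33.

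Genes of the rest of the translation and folding machinery had medians below that of all genes, and Eef1a1 was the one of them past the test. With the Cy3 ratios turned the medians of these 4 lists were positive, from 0.52 for translation factors to 1.00 for nucleolar genes. Translation factors were lower in both dyes in 33 of 45 (median -1.29, slide 2 -0.41), nucleolar and rRNA processing genes in 23 of 32 (median -1.39, slide 2 -0.44), cytosolic chaperones in 27 of 38 (median -1.54, slide 2 -0.82) and genes of folding and translocation in the endoplasmic reticulum in 25 of 34 (median -1.06, slide 2 -0.53). Over all genes 40.3% were lower in both dyes. Npm1 read 2.28 and -2.25 in D0 and 0.12 and -4.20 in D1-LIF, a difference of -2.06 with an adjusted p of 0.09 in limma. Hspa8, the constitutive Hsc70 chaperone, read 3.09 and -1.35 in D0 and -0.01 and -2.20 in D1-LIF, with an adjusted p of 0.156 in limma.

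Hsp90aa1 read 4.76 and -1.72 in D0 and 0.92 and -2.47 in D1-LIF, a difference of -2.29 that turned to 1.16 when the arrays were scaled to an equal spread within slide and to 0.23 with quantile normalization. Eif4a1, the helicase of translation initiation, read 4.65 and -1.64 in D0 and -0.08 and -2.27 in D1-LIF, a difference of -2.68 that turned to 0.39 with equal spread. Cct8, a subunit of the chaperonin that folds actin and tubulin, had the most negative value of all genes, -4.30 (limma adjusted p = 0.09), from a single clone in a displaced block. The large Cy3 values of all 3 genes came from slide 1, where the D0 Cy3 array had its wide spread.

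Mitochondrial ribosomal proteins did not keep the pattern of their cytosolic counterparts on slide 2. Of 47, 30 were lower in both dyes over both slides (median -0.82), whereas on slide 2 the count was 7 of 21 and the median 0.01. The share of all genes was 40.3% over both slides and 35.8% on slide 2. Genes of oxidative phosphorylation were lower in both dyes in 41 of 56 (median -0.76, slide 2 -0.44), with Atp5pb, a subunit of the ATP synthase stalk, at -2.08, Atp5b, the catalytic subunit, at -1.68 and Cox4i1 of cytochrome c oxidase at -1.72. None of these passed the test, and the adjusted p in limma was 0.09 for Atp5pb, 0.122 for Atp5b and 0.159 for Cox4i1.

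Glycolysis genes differed between the dyes in the size of the change. The 18 measured had a median difference of -3.38 in the Cy3 arrays and -0.39 in the Cy5 arrays. The 6 with a clone on slide 2 had a median of -0.36. Of the 18, 11 were lower and 1 higher in both dyes, beside 40.3% and 27.6% of all genes. The Cy5 values include displaced blocks, and with these left out 12 genes remained. Of the 12, 11 were lower and 1 higher in both dyes (median -1.98). The median level of the 18 genes was 3.36 on D0 Cy3, -0.62 on D0 Cy5, -0.18 on D1-LIF Cy3 and -0.48 on D1-LIF Cy5. Aldoa, aldolase A, read 4.49 and -0.69 in D0 and -0.34 and -3.44 in D1-LIF (limma adjusted p = 0.151).

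Actb, Gapdh and Hprt are common housekeeping genes, but the study treated them as variable during differentiation and took 18S rRNA as its reference, so they are no fixed standard here. Gapdh, a glycolytic enzyme, read 3.91 and -0.63 in D0 and -0.88 and -1.24 in D1-LIF, with 2 of its 3 clones displaced on the D1-LIF Cy5 array. The remaining clone gave -4.27 (limma adjusted p = 0.069). Actb read 3.66 and -0.84 in D0 and -0.29 and -2.64 in D1-LIF, with 9 of 10 clones lower and the last at 1.82, and Hprt, a purine salvage enzyme, read 2.89 and -1.28 in D0 and -0.20 and -2.30 in D1-LIF. All 3 genes were lower in D1-LIF in both dyes, with differences of -2.88 (Actb), -2.70 (Gapdh) and -2.05 (Hprt), and none passed the test in limma, with adjusted p of 0.151, 0.172 and 0.156. Whether loading differed between the arrays was not tested.

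Among the cytoskeletal genes 38 of 46 were lower in both dyes (median -1.22, slide 2 -0.54), and among splicing factors and hnRNP proteins 42 of 56 (median -1.09, slide 2 -0.55). Hnrnpa1, which shuttles mRNA between nucleus and cytoplasm, read 2.23 and -1.02 in D0 and -0.31 and -2.89 in D1-LIF (limma adjusted p = 0.09). Chromatin regulators were lower in both dyes in 39 of 56 (median -0.89, slide 2 -0.46), proteasome genes in 22 of 33 (median -0.85, slide 2 -0.22) and cell cycle and replication genes in 45 of 69 (median -0.67, slide 2 -0.32). In these lists no gene passed the test. Over all genes 40.3% were lower in both dyes. On slide 2 the counts were 19 of 24 (cytoskeleton), 29 of 38 (splicing), 25 of 35 (chromatin), 8 of 17 (proteasome) and 19 of 37 (cell cycle). The share of all genes on that slide was 35.8%. With equal spread within slide 29 of the 34 list medians kept their sign, and 16 stayed within 1 SD of the dye pairs. Other genes with p close to those of the called genes were Rhoa, a GTPase of the actin cytoskeleton, at -2.0, Anxa6, a membrane-binding annexin measured on slide 2, at -1.71, and Gjb5, a connexin from a displaced block, at -2.14 (limma adjusted p = 0.09, 0.09 and 0.081).

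**Figure D4:**
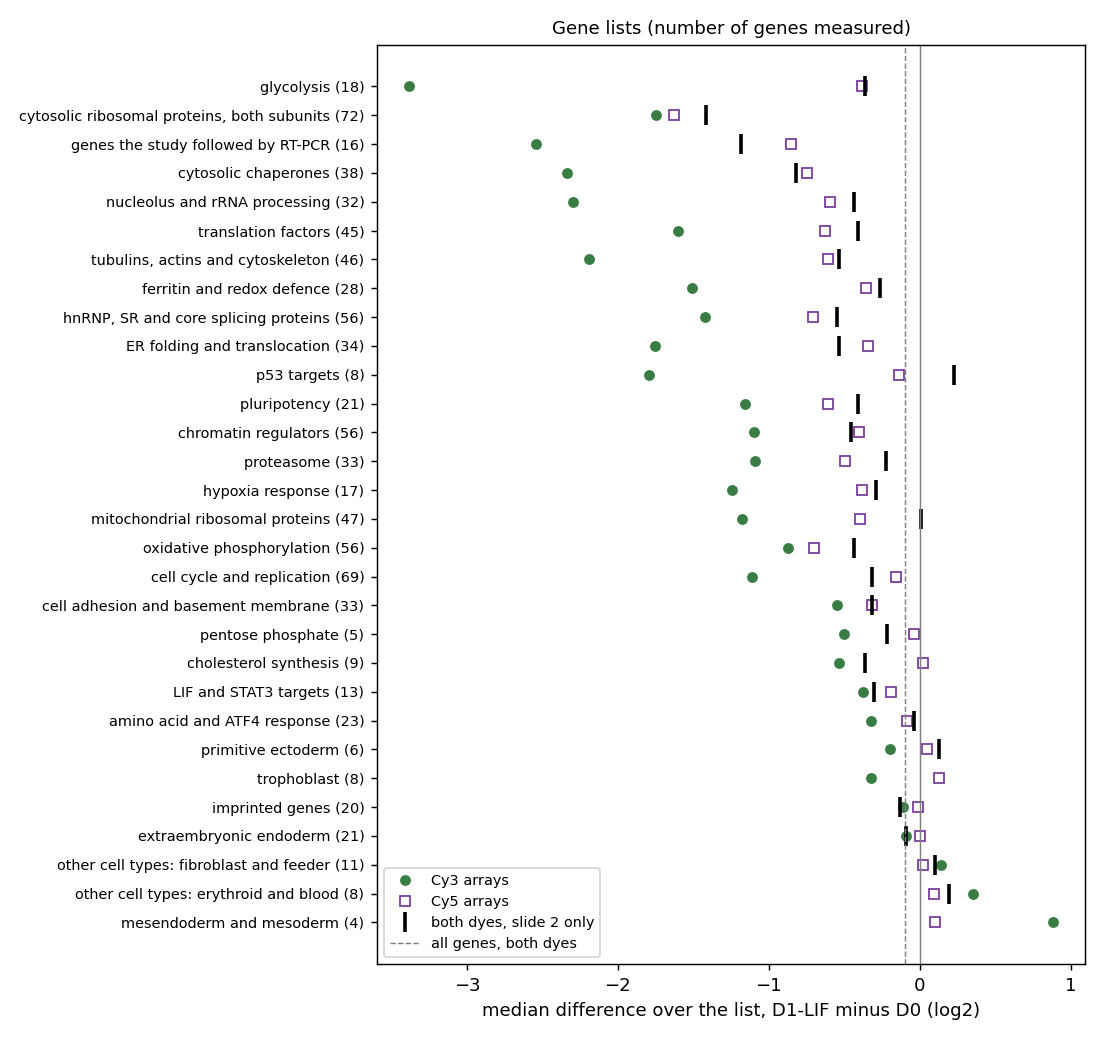
Median difference between D1-LIF and D0 over each gene list with at least 4 genes measured (log2), in the Cy3 arrays (green circles), the Cy5 arrays (purple squares) and both dyes on slide 2 alone (black ticks), with the median of all genes dashed and the number measured in brackets. Glycolysis lies at -3.38 in Cy3 and -0.39 in Cy5, and cytosolic ribosomal proteins at -1.75 and -1.63.

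The pluripotency genes were mostly lower after 1 day without LIF, though none passed the test and the median of the list shrank to -0.10 with equal spread within slide and -0.03 with quantile normalization. With the Cy3 ratios turned it was 0.53 and with the Cy5 ratios turned -0.53. Of 21 measured, 14 were lower in both dyes and none higher in both (median -0.91), beside 40.3% and 27.6% of all genes, and on slide 2 the counts were 7 and 1 of 12 (median -0.41). Pou5f1 read 3.85 and 0.08 in D0 and -0.40 and -2.68 in D1-LIF, a difference of -3.51 from 1 clone in a block displaced on the D0 Cy5 array (limma adjusted p = 0.151). Nanog, the homeodomain factor that can sustain self-renewal without LIF, read 3.80 and -0.71 in D0 and -0.85 and -2.08 in D1-LIF, a difference of -3.01 ± 0.86 from 1 clone of slide 1 (limma adjusted p = 0.166).

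Klf4, a reprogramming factor and target of Stat3, read 3.36 and -0.20 in D0 and -0.18 and -0.85 in D1-LIF (limma adjusted p = 0.192). Dppa5a, a marker of pluripotent cells, was measured on slide 2 and read 0.50 and -1.34 in D0 and -0.43 and -2.25 in D1-LIF, nearly the same difference in each dye, -0.93 in Cy3 and -0.90 in Cy5 (limma adjusted p = 0.315). The difference for Klf4 was -3.55 in Cy3 and -0.64 in Cy5, so the agreement between dyes for Dppa5a did not extend to the slide 1 clones of Klf4.

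Of the wider set of LIF and Stat3 targets 8 of 13 were lower in both dyes (median -0.34, slide 2 -0.30), beside 40.3% of all genes. Id1, an inhibitor of differentiation induced by BMP, read 3.06 and -0.58 in D0 and -0.40 and -1.72 in D1-LIF. Against the bodies that kept LIF, D1-LIF showed no gene past the test in either direction among 6267 (limma, 0% called lower and 0% higher), and 192 (3.06%) had an unadjusted p under 0.05. Leaving out the D1+LIF Cy3 array gave 638 lower and 164 higher, and leaving out any other array of D0, D1-LIF or D1+LIF gave none. The D1+LIF Cy5 array had 33 displaced blocks and lacked a value at 7973 of its slide 1 spots.

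In that comparison the cytosolic ribosomal proteins had a median of -0.39 and all genes -0.03, and the pluripotency list had a median of -0.10. Beside them stand the differences from D0 given above, which use the same D1-LIF arrays. Eef1a1 differed from D1+LIF by -0.66, Rpsa by -0.63, Sod1 by -0.41 and Nanog by -0.11.

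**Figure D5:**
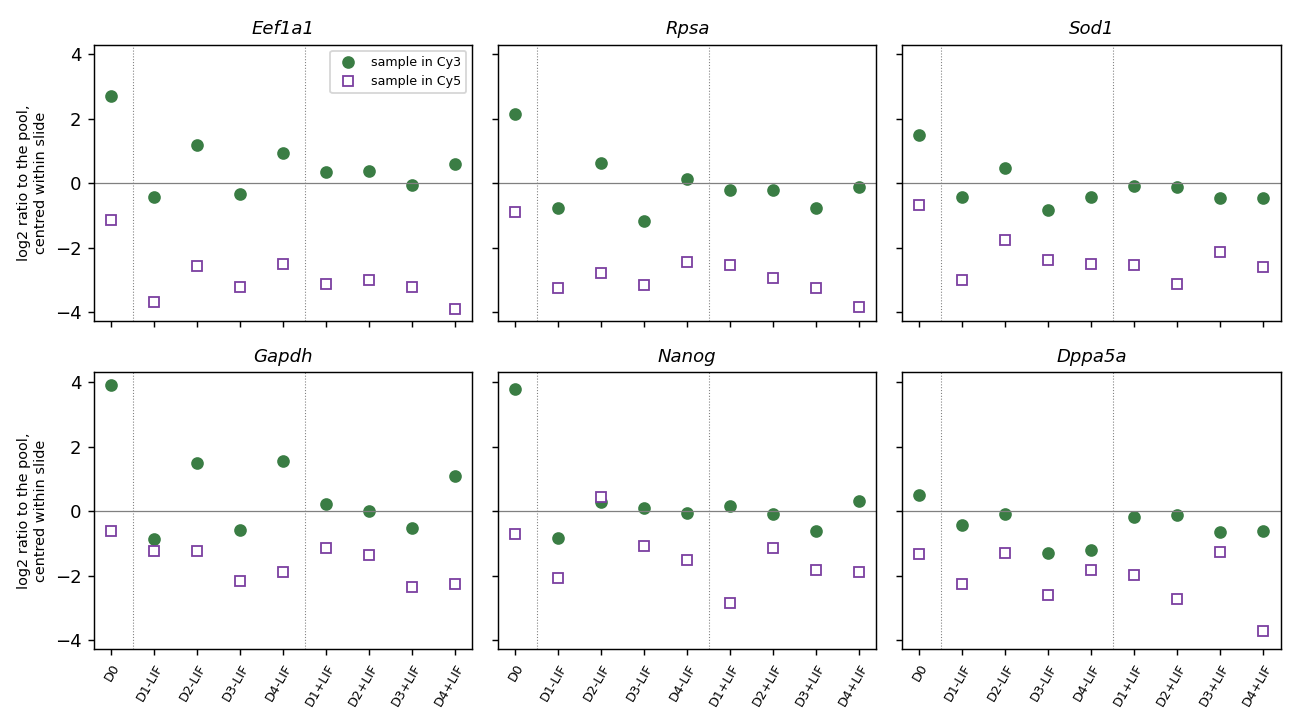
Log2 ratio to the pool, centred within slide, of 6 genes on all 18 arrays (x axis, condition; green circles Cy3, purple squares Cy5). For Eef1a1 the D0 array is the highest in each dye, 2.72 in Cy3 and -1.14 in Cy5, and the D1-LIF arrays lie at -0.42 and -3.67.

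The gene lists of other lineages did not share a direction with each other. Of 21 extraembryonic endoderm genes 8 were lower and 6 higher in both dyes (median -0.03), which is close to the shares over all genes. Sparc, a matrix protein of parietal endoderm that ES cells also carry, read 3.06 and -0.26 in D0 and -0.22 and -2.07 in D1-LIF, and Krt8, a simple epithelial keratin, read 2.28 and -0.30 in D0 and -0.29 and -1.13 in D1-LIF. Pdgfra, a receptor of primitive endoderm and mesoderm, read -3.84 and 0.30 in D0 and 0.17 and 0.29 in D1-LIF, so that its difference of 2.00 came from the D0 Cy3 array alone (limma adjusted p = 0.223).

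Of the primitive ectoderm genes 6 of 15 listed were measured, and 2 were lower in both dyes and 1 higher (median -0.16). Dnmt3b, a de novo DNA methyltransferase, read 4.04 and -1.15 in D0 and 0.76 and -1.10 in D1-LIF. The mesendoderm and mesoderm list had 4 of 23 genes measured, with none lower and 2 higher in both dyes (median 0.51). Its differences were all positive, from 0.30 to 2.00, the last that of Pdgfra. Bmp4, a ligand that induces mesoderm, was among the 2, at 0.37, from 1 clone in a displaced block. No gene of this list had a clone on slide 2. With displaced blocks left out 2 of 3 genes were higher in both dyes (median 0.68). Of the trophoblast genes 8 of 21 were measured, 2 lower in both dyes and 1 higher (median -0.14). Of the neurectoderm genes 3 of 14 were measured, none lower and 1 higher in both dyes (median -0.52).

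Markers of cells that the cultures might also hold had medians near the centre of each array. Of 11 fibroblast and feeder genes 2 were lower and 4 higher in both dyes, with a median level of -0.04 on D0 Cy3, 0.04 on D0 Cy5, 0.00 on D1-LIF Cy3 and 0.05 on D1-LIF Cy5. On D0 Cy3 the 11 genes ranged from -0.82 to 1.17. Of 8 erythroid and blood genes none was lower and 6 were higher in both dyes, beside 27.6% of all genes higher in both (median 0.21, and a range on D0 Cy3 of -1.87 to 1.49), with median levels of -0.10 and 0.08 in D0 and 0.00 and 0.19 in D1-LIF. Col1a1, the main collagen of fibroblasts, differed by 0.57 and Alas2, the first enzyme of haem synthesis in red cells, by 0.71, with adjusted p of 0.169 and 0.181 in limma. A ratio to a pool does not give a level against other genes, so these values do not say how much of each message was present, and in such bulk RNA fewer cells of a type and less RNA per cell cannot be told apart.

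No gene with a positive difference passed the test. Dnmt1, the maintenance DNA methyltransferase, read -1.15 and -1.31 in D0 and -0.28 and -0.03 in D1-LIF, a difference of 1.07 (limma adjusted p = 0.09). Mrps9, a protein of the mitochondrial ribosome, read -1.12 and -1.34 in D0 and -0.00 and 0.23 in D1-LIF, a difference of 1.34 (limma adjusted p = 0.115). In both genes the D1-LIF arrays lay above both D0 arrays, as they did in 972 of 7142 genes (13.6%). Dnmt1 and Mrps9 each rested on 1 clone in a displaced block. Xdh, xanthine dehydrogenase, and Armc6, both from slide 2, differed by 0.77 and 0.59 (limma adjusted p = 0.155 for each).

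After RT-PCR of a longer list the study kept genes that changed on various days, with or without LIF, and some were uncharacterised ESTs. Of 18 kept genes that have a symbol, 16 were measured here. Of the 16, 15 were lower in D1-LIF in both dyes (median -1.70, and -1.19 for the 14 on slide 2). These genes were chosen on arrays that include the ones used here and kept for a repeatable change, so their direction is not independent evidence. Tkt, the transketolase of the pentose phosphate pathway, read 0.27 and -0.25 in D0 and 0.06 and -0.29 in D1-LIF, a difference of -0.12 ± 0.22, and it turned to 0.14 when arrays were centred over both slides together. Aurkb, a mitotic kinase, was the 1 gene of the 16 with opposite signs in the dyes, at 1.46 and 0.08 in D0 and -0.15 and 0.30 in D1-LIF. Aurkb rested on 1 clone in a displaced block. With displaced blocks left out 14 of 15 genes of this list were lower in both dyes. Ssr2, of the translocon-associated complex, and Hnrnpk, an RNA-binding protein, differed by -1.74 and -1.23, and Sgce, an imprinted sarcoglycan, by -0.86, the mean of clones at -2.14 and 0.43.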

How the data were processed

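The authors quantified each 2-colour NIA mouse 15K cDNA array (18 arrays, 9 conditions, 2 dye orientations), normalised every channel by its mean and deposited 1 linear ratio per spot. Whether these ratios run sample over pool is not given in the sources used here. The study's methods describe the pool as equal parts of every sample, D0 included, whereas the series' design text names the bodies of days 1 to 4 alone. The background filter of the study needs channel intensities and was not applied, and its SAM test was not run. For this report 1 ratio of 0 was set missing, log2 was taken, the mean of the 2 copies of a spot was used, and the median of every slide was subtracted. Clones of a gene were averaged over the same clones on each array compared. limma 3.58.1 in R 4.3.3 fitted 9 condition means and a dye term over all 18 arrays (lmFit, eBayes, Benjamini-Hochberg). The number of arrays limits the precision. Symbols came from the platform annotation (274 clones with several and 5220 with none were not described). Displaced grid blocks were those whose rank correlation with the other Cy5 arrays exceeded 0.5 and gained over 0.2 after a shift of 1 grid row. The named genes were the measured genes the study followed, the 12 of each direction with the largest change past the test, filled up by smallest p, and the leading genes of each list. Eef1g, Eef2, Nap1l1, Rpl3, Rpl7, Rpl10, Rpl11, Rpl27, Rpl32 and Serbp1 were named after their values were seen. Members and lists were chosen with earlier results of these data known.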

Additional observations from a re-analysis of the deposited data

How the results depend on the processing

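The dye of the sample paired the arrays, and deviations of same-dye arrays from their group means correlated at 0.60 over 15360 clones and at 0.83 on slide 2. With no replicate block (no dye term) 0 genes were called lower, as with equal spread (MAD) within slide, quantile normalization, array weights, the 4 arrays alone, slide 1 alone, or either dye turned. The gene count lower was 43 when arrays were centred over both slides (2 higher), 3 when centred on the tested genes, 1 as deposited, 8 with a value on all 18 arrays, 2 on slide 2, 5 with displaced blocks left out and 6 with them moved back (the last 2 alternatives were chosen after seeing the data). Leaving out 1 array gave 0 to 1561 genes lower and 0 to 805 higher, and 0 to 2577 clones lower and 0 to 2433 higher, the upper ends all without the D0 Cy5 array. Clones called lower were 143 with both slides centred together (2 higher), 53 with a value on all 18 arrays and 49 on slide 2. Against D1+LIF, leaving out 1 array gave 0 to 638 genes lower and 0 to 164 higher.

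Of the 15359 clones tested for a 2-fold difference in every spot pair, 919 were lower and 1 higher. As deposited the counts were 344 and 1032, with Cy3 turned 70 and 22, with Cy5 turned 22 and 70, and on slide 2 262 and 0. The higher count was 15 with both slides centred together and 0 without displaced blocks. No centring moved the median of all genes from -0.10 to 0.55, and single values moved with it.

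With Cy3 turned 41 of 52 named changes reversed. Those of Pdgfra (-2.01), Col1a1 (-0.17), Xdh (-0.11) and Bmp4 (-0.017) became negative. For translation and folding genes the turned values were 0.057 for Rplp1, 0.11 for Npm1 and Rpl37, 0.28 for Rpsa, 0.30 for Eef1a1, 0.42 for Cct8, 0.69 for Rpl8, 0.93 for Rps27l, 1.12 for Hspa8, 1.36 for Ssr2, 1.48 for Rps2, 1.55 for Hsp90aa1 and 2.05 for Eif4a1. For pluripotency and lineage genes they were 0.011 for Dppa5a, 0.74 for Sparc, 0.75 for Pou5f1, 0.87 for Krt8, 1.16 for Id1, 1.45 for Klf4, 1.64 for Nanog and 1.67 for Dnmt3b. For the rest they were 0.085 for Tkt, 0.11 for Gjb5, 0.22 for Rhoa, 0.32 for Cox4i1, 0.34 for Atp5pb and Hnrnpa1, 0.39 for Atp5b, 0.47 for Hnrnpk, 0.91 for Aurkb, 1.03 for Hprt and Aldoa, 1.08 for Actb, 1.21 for H2az1, 1.31 for Tubb5, 1.38 for Ftl1 and 2.09 for Gapdh. With Cy5 turned 11 reversed, to -0.23 for Mrps9, -0.21 for Dnmt1, -0.086 for Alas2, -0.080 for Armc6, 0.048 for Rpl32, 0.079 for A730082K24Rik, 0.13 for Sgce, 0.20 for Sod1, 0.22 for Rpl11, 0.42 for Anxa6 and 0.55 for Rpl27.

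As deposited Krt8 was 0.065, Dnmt3b 0.15, Rpl11 0.24, Tkt 0.73, Rpl27 0.75 and Aurkb 1.08. Centred over both slides Tkt was 0.14, Rpl27 0.16 and Aurkb 0.49. With equal spread Eif4a1 was 0.39, Hsp90aa1 1.16 and Dnmt3b 1.24, and with quantile normalization Hsp90aa1 was 0.23 and Dnmt3b 1.13. Rpl11 was 0.27 with duplicate spots within 1 log2 unit, and Rpl27 0.77 on slide 1. With 1 array left out Tkt ran from -0.30 to 0.049, Rpl27 from -0.83 to 0.17 and Dnmt3b from -3.51 to 0.27. The cause of these moves was not tested.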
